A study of Mus musculus with 27 samples.

Results

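Glutathione metabolism was followed through 10 genes in fetal mouse lung, namely the glutathione peroxidases Gpx1, Gpx3 and Gpx4, the glutathione transferases Gstm1, Gsta3, Gsta4 and Gsto1, both subunits of glutamate-cysteine ligase, Gclc and Gclm, and glutathione reductase, Gsr. They were found by the gene symbol that the platform's annotation gives each probe. Of the 10 genes, 9 had a named probe and Gsr had none, so Gsr was not analysed here. The 9 genes had 13 probes among the 45281 probes of the array, and 10 of these, at least 1 for each gene, passed the detection filter that 22958 probes passed. The filter asked for a detection p below 0.05 on 6 or more of the 9 arrays that any 1 group had. The probe used for each of the 9 genes was detected on all arrays of every group.

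Glutathione is a cysteine-containing tripeptide that keeps the inside of the cell reduced. Glutathione peroxidases use it to reduce hydrogen peroxide and lipid peroxides, glutathione transferases join it to electrophiles, glutamate-cysteine ligase makes its precursor in the rate-limiting step of synthesis, and glutathione reductase restores the oxidised form with NADPH. In rats and rabbits, antioxidant enzymes of the lung rise late in gestation, ahead of the first breath in air.

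The samples were left lung lobes of male fetuses of the C57BL/6 X BALBc cross at day 18 of gestation, measured on Illumina bead arrays. Control fetuses had developed throughout in females that ovulated naturally. Fetuses of the EG in vitro group grew in pseudopregnant recipients from transferred blastocysts that had been derived in vitro, and those of the EG in vivo group grew in such recipients from transferred blastocysts derived in vivo. There were 3 pools per group and 3 technical arrays per pool. The number of fetuses in a pool and the litters they came from are not stated, so p-values measure the spread between these pools, which may be technical. Redox balance of the lung is among the properties named in the study's design, which makes these genes part of its question.

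Between 19762 and 23449 probes were detected per array. Nkx2-1, a defining transcription factor of lung epithelium, stood at 13.43 in controls, 13.34 for EG in vitro and 13.33 for EG in vivo on the log2 scale. All arrays detected the Y-linked genes Uty, Kdm5d and Eif2s3y. Control replicate 1 also carried Xist, the RNA of the inactive X chromosome in females, at 10.90, which goes against its male label. EG in vitro replicates 1 and 2 stood at 5.45 and 5.41 for the same probe, and the other 6 pools at 4.56 to 4.83. The probe was detected on 3 of 9 control, 6 of 9 EG in vitro and 0 of 9 EG in vivo arrays, so Xist was not confined to control replicate 1. Without control replicate 1 the same number of the 9 genes passed the test in each comparison as with it, 6 and 6. Replicate 3 of every group had dimmer arrays, with a mean median signal between 117 and 122 against 145 to 167 for replicates 1 and 2.

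Of the 9 genes measured, 6 fell in EG in vitro lungs and 0 rose. The same count, 6 lower and 0 higher, was found in EG in vivo lungs. They were all 3 peroxidases and the transferases Gstm1, Gsta3 and Gsto1. A gene was called when its limma p-value was below 0.05 after Benjamini-Hochberg adjustment across the 22958 probes, and the probe with the highest mean stood for its gene. Changes were common in these lungs: of the 11945 genes tested, 44.8% were called in EG in vitro (21.8% higher and 23.0% lower), and 43.4% were called in EG in vivo (22.2% higher and 21.2% lower). For the same 6 genes every control pool lay above every transfer pool, and groups without overlap made up 57.4% of all genes in EG in vitro and 53.3% of all genes in EG in vivo. The fall was at least 2-fold for 3 of the 9 genes, Gpx3, Gstm1 and Gsta3, in both comparisons, and 20.7% of all genes in EG in vitro and 19.1% of all genes in EG in vivo passed with at least that change in either direction. The median difference over the 9 genes was -0.59 for EG in vitro and -0.62 for EG in vivo, beside 0.03 and 0.04 over all genes tested. Both comparisons use the same 3 control pools. In RNA of whole lung lobes, fewer cells of a type and less RNA per cell cannot be told apart.

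**Figure D1:**
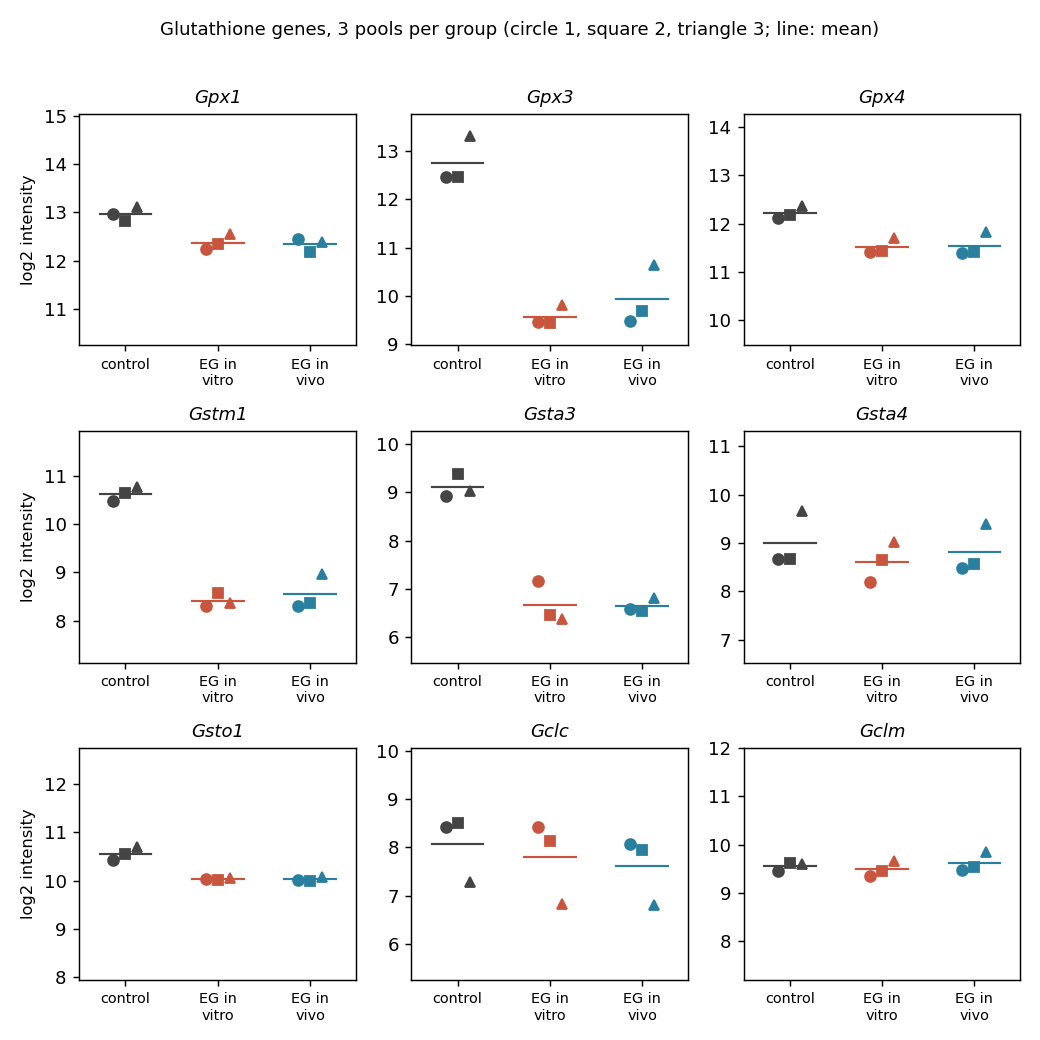
Normalized log2 intensity (vertical axis, 4.8 log2 units in every panel) of the 9 measured genes in the pools of each group (horizontal axis), with circles for replicate 1, squares for replicate 2, triangles for replicate 3 and a line at the group mean. Gpx3, Gstm1 and Gsta3 show the widest gap between the controls and both transfer groups, while Gsta4, Gclc and Gclm overlap between groups.

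Gpx3 encodes the secreted, plasma form of glutathione peroxidase, a selenoprotein. Its log2 intensities were 12.46, 12.46 and 13.32 in the control pools, 9.46, 9.44 and 9.80 for EG in vitro, and 9.48, 9.68 and 10.65 for EG in vivo. Every control pool lay above every transfer pool, and replicate 3 was the highest of its group each time. Before normalization its mean signal was 6259 to 7511 in control pools, 681 to 972 in EG in vitro pools and 942 to 1216 in EG in vivo pools, so the gap was present in the scanner values as well. Gpx3 fell by 3.18 ± 0.34 on the log2 scale in EG in vitro (SE, n = 3 pools per group, 9.05-fold, limma adjusted p = 0.000155). In EG in vivo it fell by 2.81 ± 0.34 (7.0-fold, limma adjusted p = 0.000334).

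Gpx1 is the abundant selenium-dependent peroxidase of the cytosol and mitochondria. Its pools stood at 12.96, 12.81 and 13.11 in controls, 12.23, 12.33 and 12.55 for EG in vitro, and 12.45, 12.18 and 12.38 for EG in vivo. The lowest control pool lay above the highest transfer pool by a small margin. The fall was 1.5-fold in EG in vitro (log2 difference -0.59 ± 0.14, limma adjusted p = 0.00973) and 1.54-fold in EG in vivo (-0.62 ± 0.14, limma adjusted p = 0.00790).

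Gpx4 reduces phospholipid hydroperoxides inside membranes and holds back the form of cell death called ferroptosis. Its brightest probe read 12.12, 12.18 and 12.37 in controls, 11.42, 11.43 and 11.69 for EG in vitro, and 11.38, 11.41 and 11.83 for EG in vivo. Here too the controls did not overlap with either transfer group. Gpx4 fell by 0.71 ± 0.16 in EG in vitro (limma adjusted p = 0.00729) and it fell by 0.68 ± 0.16 in EG in vivo (limma adjusted p = 0.00936). Its second kept probe gave nearly the same size, -0.74 ± 0.14 and -0.72 ± 0.14, with both calls, and another probe, detected on 2 control arrays and on 0 of the other groups, did not pass the filter.

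Gsta3 is an alpha-class transferase. Its pools read 8.93, 9.38 and 9.04 in controls, 7.17, 6.45 and 6.37 for EG in vitro, and 6.59, 6.55 and 6.82 for EG in vivo. The transfer pools were all far below the lowest control, and replicate 1 of EG in vitro was the highest of them. Gsta3 fell by 2.45 ± 0.23 in EG in vitro (5.48-fold, limma adjusted p = 7.02e-05) and it fell by 2.46 ± 0.23 in EG in vivo (5.52-fold, limma adjusted p = 7.77e-05). The gene is dim in transfer lungs and its fold depends on the background: without background correction the differences were -1.63 for EG in vitro and -1.65 for EG in vivo, still past the threshold, and smaller in size than those of Gstm1 (-1.90 and -1.80). Its second probe was detected on only 5 of 9 control arrays and 2 of 9 in each transfer group, and was not tested.

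Gstm1, a mu-class transferase, also fell by more than 2-fold. Its pools stood at 10.48, 10.64 and 10.77 in controls, 8.31, 8.57 and 8.36 for EG in vitro, and 8.30, 8.37 and 8.97 for EG in vivo. No transfer pool came near the controls. The gene fell by 2.21 ± 0.19 in EG in vitro (4.64-fold, limma adjusted p = 4.86e-05) and it fell by 2.08 ± 0.19 in EG in vivo (4.24-fold, limma adjusted p = 7.58e-05). A second Gstm1 probe, detected on 2 control, 1 EG in vitro and 3 EG in vivo arrays, did not pass the filter. Mu and alpha transferases come as families of similar genes, and probe sequences were not used here, so signal from relatives was not tested.

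Gsto1 belongs to the omega class, which reduces dehydroascorbate rather than mainly conjugating electrophiles. It read 10.43, 10.55 and 10.70 in controls, 10.03, 10.02 and 10.05 for EG in vitro, and 10.02, 10 and 10.07 for EG in vivo. The 6 transfer pools were almost level and lay below all controls. The fall was modest, 1.44-fold in both groups (log2 difference -0.52 ± 0.11 with limma adjusted p = 0.00517 in EG in vitro, and -0.53 ± 0.11 with limma adjusted p = 0.00526 in EG in vivo).

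Gsta4, an alpha-class enzyme that prefers the lipid peroxidation product hydroxynonenal, did not pass the test. Its pools were 8.66, 8.66 and 9.66 in controls, 8.19, 8.64 and 9.01 for EG in vitro, and 8.49, 8.56 and 9.39 for EG in vivo. The groups overlapped, and replicate 3 was the highest pool of each. The log2 difference was -0.38 (95% confidence interval -1.20 to 0.44, limma adjusted p = 0.446) in EG in vitro and -0.18 (-0.998 to 0.639, limma adjusted p = 0.740) in EG in vivo. With the replicate number as a block, the EG in vitro difference passed the threshold (limma adjusted p = 0.0453) and that in EG in vivo did not (limma adjusted p = 0.298).

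The ligase subunits set the pace of glutathione synthesis, Gclc as the catalytic and Gclm as the modifier subunit. Gclm had pools at 9.46, 9.61 and 9.60 in controls, 9.35, 9.45 and 9.66 for EG in vitro, and 9.47, 9.53 and 9.85 for EG in vivo. Its groups overlapped, with differences of -0.07 (95% confidence interval -0.40 to 0.26, limma adjusted p = 0.740) and 0.06 (-0.27 to 0.38, limma adjusted p = 0.795). Gclc read 8.43, 8.51 and 7.28 in controls, 8.42, 8.14 and 6.82 for EG in vitro, and 8.06, 7.96 and 6.81 for EG in vivo. Here replicate 3 was far below the others in every group, and the intervals were wide. The Gclc difference was -0.28 (95% confidence interval -1.48 to 0.92, limma adjusted p = 0.718) in EG in vitro and -0.46 (-1.66 to 0.74, limma adjusted p = 0.538) in EG in vivo. With the replicate number as a block, Gclc was lower in EG in vivo (limma adjusted p = 0.0120) and did not pass in EG in vitro (limma adjusted p = 0.0768). With replicates 1 and 2 only, the EG in vivo difference was -0.46 (limma adjusted p = 0.0237).

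**Figure D2:**
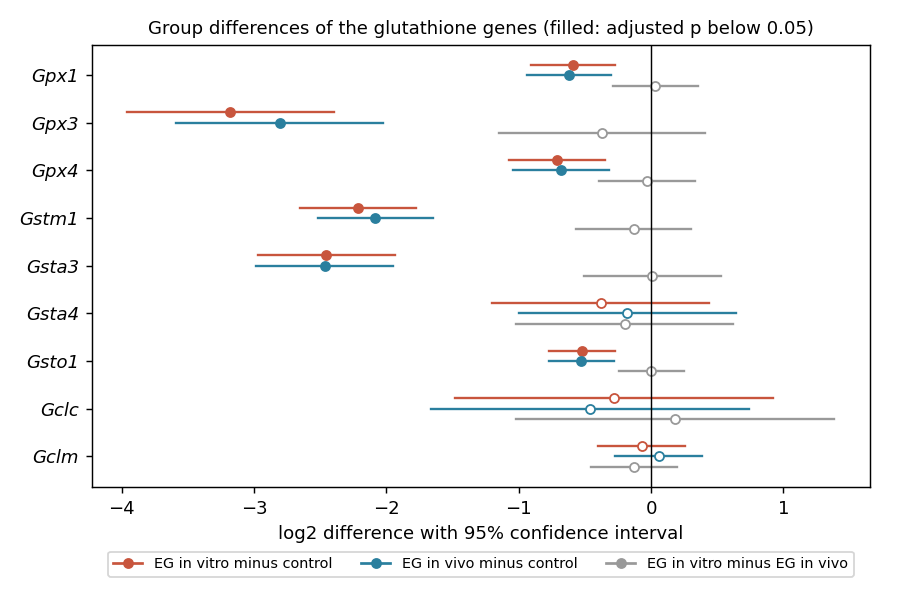
Log2 differences between groups (horizontal axis) of the 9 genes (vertical axis), with 95% confidence intervals from the limma fit over 9 pools and filled points where the adjusted p is below 0.05. The differences from control of Gpx3, Gstm1 and Gsta3 lie beyond -2 in both transfer groups, and all 9 intervals of EG in vitro minus EG in vivo include 0.

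The direct comparison of EG in vitro with EG in vivo sets side by side transferred blastocysts derived in vitro and in vivo. Against control, transfer and growth in a pseudopregnant recipient came together, so their parts cannot be told apart. Of the 9 genes, 0 were called and the groups overlapped for all 9. Of all genes tested, 0 (0%) passed limma's adjusted threshold and 153 (1.28%) had an unadjusted p below 0.05. Groups without overlap made up 5.42% of all genes. The point estimates ran from -0.37 for Gpx3 (95% confidence interval -1.15 to 0.41) to 0.18 for Gclc (-1.02 to 1.38). Among the narrowest intervals were those of Gsto1 (-0.24 to 0.25), Gclm (-0.46 to 0.20) and Gpx1 (-0.28 to 0.35). These intervals are not adjusted for the number of probes tested and are not limits of detection. They do not exclude true differences of the sizes inside them, and larger differences could also have gone uncalled after adjustment. For every called gene the order of levels was therefore control above both transfer groups, with no separable order between those 2 groups.

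Among themselves, the 9 genes were compared by their profiles over the 9 pools. Likeness was measured as the root mean square difference between profiles, each centred on its own mean. Profiles were not scaled, so the measure also reflects the size of a change and not its shape alone. Gpx1 and Gsto1 were closest (0.12 log2 units), followed by Gpx1 and Gpx4 (0.14) and by Gpx4 and Gsto1 (0.15), 3 genes with small falls. Gclm, which was not called, lay 0.27 from Gsto1, 0.32 from Gpx1 and 0.33 from Gpx4. Gstm1 lay 0.33 from Gsta3 and 0.48 from Gpx3, and the most distant pair was Gpx3 and Gclc (1.59). Across all genes tested, the profiles nearest to Gpx3 were those of Ephx1, the microsomal epoxide hydrolase (0.13), and Gprc5a, a retinoid-induced receptor of lung epithelium (0.19). Gstm1 was nearest to Ccrl2, a chemerin-binding receptor (0.10), and Selplg, a selectin ligand of leukocytes (0.11), and Gsta3 to Stmnd1 (0.21) and Fmo2, a flavin monooxygenase of lung (0.21).

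Replicate 3 moved the genes in different directions within each group. For Gclc, replicate 3 minus the mean of replicates 1 and 2 was -1.19 in controls, -1.46 for EG in vitro and -1.20 for EG in vivo, which puts it among the 4.49% of kept probes at least 2-fold lower there in all 3 groups. Gsta4 was higher in replicate 3 by 1.00, 0.60 and 0.87, and Gpx3 by 0.86, 0.36 and 1.07, in the same order of groups. Over all kept probes the median size of this difference was 0.30. For Gpx1, Gsto1 and Gclm it was at most 0.35 in every group. The part of array brightness in these differences was not tested.

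**Figure D3:**
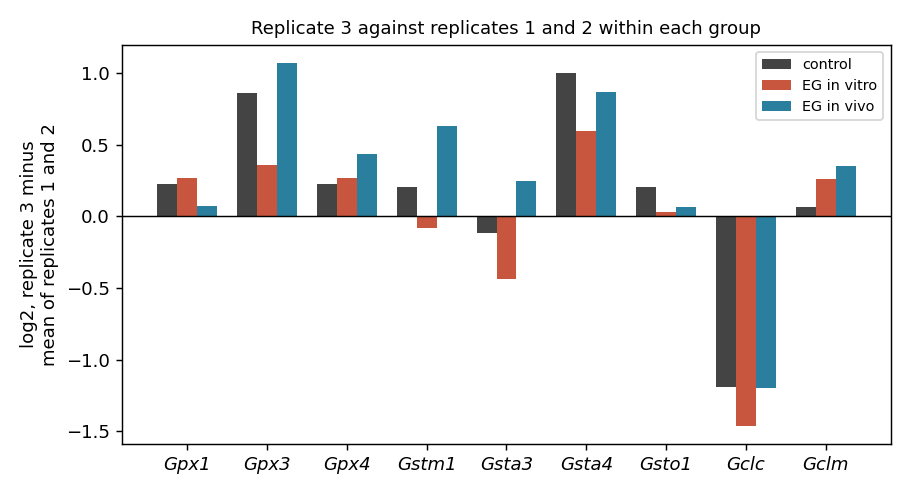
Log2 intensity of replicate 3 minus the mean of replicates 1 and 2 (vertical axis) for each of the 9 genes (horizontal axis), with 1 bar for each group. Gclc is lower in replicate 3 in all 3 groups, from -1.19 to -1.46, and Gsta4 and Gpx3 are higher in all 3.

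Markers of several cell types moved with the falling genes. All 3 measured club cell markers fell in both transfer groups, and their mean log2 level ran from 13.54 to 14.04 over control pools, 7.55 to 8.18 for EG in vitro and 7.94 to 9.63 for EG in vivo. All 6 alveolar type II markers fell (13.12 to 13.34 in controls, 9.14 to 9.37 for EG in vitro, 9.31 to 10.04 for EG in vivo), as did all 4 macrophage markers (10.30 to 10.61, 8.69 to 8.92 and 8.75 to 8.94). Of 7 general epithelial markers 2 fell and 0 rose in each comparison (10.40 to 10.94, 10.41 to 10.79 and 10.36 to 10.83), and with the replicate number as a block 2 also rose in EG in vitro. Of 3 erythroid markers measured, 1 fell in each comparison, with a mean level of 12.80 to 13.07 in controls, 12.14 to 12.25 for EG in vitro and 12.12 to 12.50 for EG in vivo. All 5 alveolar type I markers fell (12.25 to 12.57 in controls, 8.80 to 8.93 in EG in vitro pools, 9.06 to 9.54 in EG in vivo pools), with median differences of -3.09 and -2.74. Of 4 endothelial markers 3 fell in EG in vitro and all 4 in EG in vivo (10.16 to 10.58, 9.02 to 9.35 and 9.12 to 9.32), and of 3 heart muscle markers 3 and 2 fell (10.74 to 10.89, 8.98 to 9.27 and 9.14 to 9.80). Of 5 mesenchymal markers 1 rose and 1 fell in each comparison (11.79 to 12.05, 12.13 to 12.37 and 11.87 to 12.26). The one that rose was Dcn, the matrix proteoglycan decorin, by 1.18 ± 0.16 and 0.95 ± 0.16. Under the replicate block 2 mesenchymal markers rose and 1 fell in EG in vitro, and all 3 heart muscle markers fell in EG in vivo.

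Hepatocyte markers were not called in the fit without the block, 0 of 4 in each comparison, but stood higher in some transfer pools. Their mean level was 4.99 to 5.79 in controls, 5.87 to 8.50 in EG in vitro pools and 5.66 to 7.25 in EG in vivo pools, while Alb, the defining albumin gene, was detected on 0 arrays. Afp, alpha-fetoprotein of fetal liver and yolk sac, read 5.90, 7.11 and 4.78 in controls, 11.00, 8.88 and 6.51 in EG in vitro pools, and 7.42, 9.22 and 6.23 in EG in vivo pools. Ttr, the transthyretin of liver and choroid plexus, read 5.55, 5.94 and 5.23, then 9.31, 7.70 and 6.42, then 6.09, 8.37 and 6.09 in the same order. With the replicate number as a block, Afp and Ttr were higher in EG in vitro (limma adjusted p = 0.0102 and 0.0199) and did not pass in EG in vivo (0.0768 and 0.132). Apoa1, an apolipoprotein, was detected on 0 of 9 control, 6 of 9 EG in vitro and 4 of 9 EG in vivo arrays. It did not pass with the block (limma adjusted p = 0.0768 and 0.412). Serpina1a, the remaining measured marker, averaged 5.20 in controls, 5.54 for EG in vitro and 5.24 for EG in vivo. It was detected on 6, 5 and 3 of 9 arrays and did not pass with the block (limma adjusted p = 0.401 and 0.935). The part of all these cell types in the values of the glutathione genes was not tested.

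The rest of the pathway was read from 7 further lists of 93 genes, of which 91 had a probe and 79 passed the filter. In EG in vitro 25 of the 79 fell and 10 rose, and in EG in vivo 24 fell and 9 rose, with medians of -0.18 and -0.06 beside 0.03 and 0.04 over all genes. The called share was 44.3% and 41.8%, close to the 44.8% and 43.4% of all genes tested. With the replicate number as a block, 52 were called in EG in vitro (20 higher and 32 lower) and 50 in EG in vivo (18 higher and 32 lower), or 65.8% and 63.3%, beside 60.0% and 58.4% of all genes in the same fit.

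The other glutathione peroxidases did not share the fall. Gpx2, the selenium-dependent form of gut and airway epithelium, stood at 5.98, 6.01 and 6.35 in controls, 7.88, 7.78 and 8.15 for EG in vitro, and 7.96, 7.62 and 8.14 for EG in vivo. It was higher in all transfer pools than in any control. Gpx2 rose by 1.82 ± 0.18 in EG in vitro (limma adjusted p = 9.52e-05) and by 1.79 ± 0.18 in EG in vivo (limma adjusted p = 0.000121). The gene is dim in controls, and without background correction its rise was 0.98 and 0.95, still called. Gpx8, a peroxidase of the endoplasmic reticulum, rose by 0.52 ± 0.13 in EG in vitro (limma adjusted p = 0.0124) and by 0.51 ± 0.13 (limma adjusted p = 0.0144). The Gpx8 call in EG in vivo was lost without control replicate 1, the pool with Xist (0.48, limma adjusted p = 0.0512). Of 3 measured genes in this list 2 rose and 0 fell in each comparison, and Gpx5 and Gpx6 did not pass the filter. Under the replicate block all 3 rose in EG in vivo, where Gpx7 was added (limma adjusted p = 0.0359).

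Of 23 other transferases and related membrane enzymes, 10 fell and 3 rose in EG in vitro, and 9 fell and 4 rose in EG in vivo. Counts under the replicate block were 13 lower and 4 higher in EG in vitro, and 13 lower and 5 higher in EG in vivo. Mu-class relatives of Gstm1 went both ways without the block. Gstm5 rose by 0.80 ± 0.14 and 0.71 ± 0.14 and Gstm4 by 0.48 ± 0.12 and 0.56 ± 0.12, while Gstm2 fell with differences of -0.57 ± 0.18 and -0.56 ± 0.18. Gstp1 rose by 0.84 ± 0.11 in each. For Gstm2 and Gstp1 these are values of the brightest of 3 kept probes. Mgst1, the microsomal transferase that also acts as a peroxidase, stood at 12.24, 12.31 and 12.58 in controls, 10.56, 10.93 and 10.76 for EG in vitro, and 10.76, 10.90 and 10.96 for EG in vivo. It fell by 1.63 ± 0.14 in EG in vitro (limma adjusted p = 5.71e-05) and differed by -1.50 ± 0.14 in EG in vivo (limma adjusted p = 9.88e-05). A second Mgst1 probe gave -0.78 and -0.71 and did not pass (limma adjusted p = 0.0759 and 0.106). Mgst2, of the same membrane family, fell with differences of -2.02 ± 0.18 and -1.60 ± 0.18, and Alox5ap, a relative that presents arachidonic acid to lipoxygenase in leukocytes, with differences of -1.90 ± 0.22 and -1.74 ± 0.22 (limma adjusted p of 0.000234 and 0.000415).

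**Figure D4:**
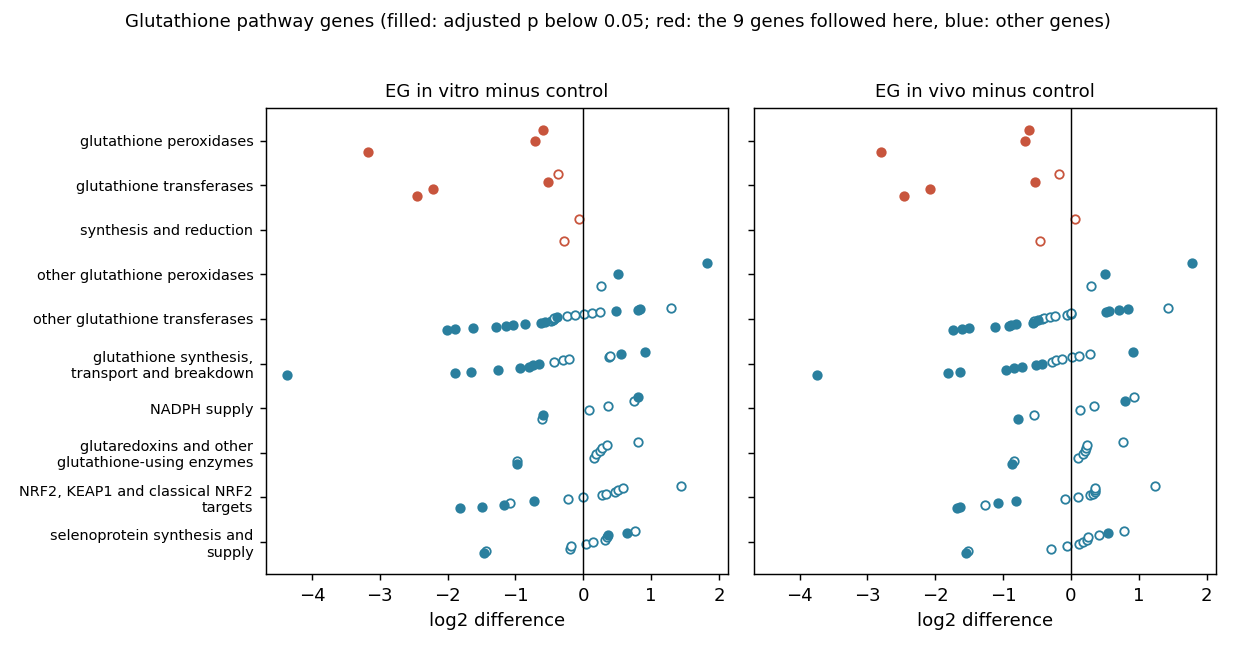
Log2 differences from control (horizontal axes) of each measured gene, by list (vertical axis), for EG in vitro on the left and EG in vivo on the right, with filled points where the limma adjusted p is below 0.05. Dpep1 is the lowest point of both panels, at -4.37 and -3.74, and Gpx2 is the highest filled point, at 1.82 and 1.79.

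In the list of glutathione synthesis, transport and breakdown, 8 of 15 measured genes fell and 2 rose in EG in vitro, and 8 fell and 1 rose in EG in vivo. Under the replicate block 8 fell and 2 rose in each comparison. The 3 genes of this list with the largest change act in breakdown and recycling. Dpep1, a membrane dipeptidase that splits the cysteine and glycine of glutathione, stood at 10.65, 10.68 and 10.95 in controls, 6.65, 6.65 and 5.88 for EG in vitro, and 6.80, 6.89 and 7.38 for EG in vivo. It fell by 4.37 ± 0.24 in EG in vitro (limma adjusted p = 7.42e-06), and it fell by 3.74 ± 0.24 in EG in vivo (limma adjusted p = 1.70e-05). Oplah, the oxoprolinase that recycles glutamate, fell with differences of -1.89 ± 0.25 and -1.64 ± 0.25. Anpep, an aminopeptidase of the cell surface, fell with differences of -1.66 ± 0.22 and -1.82 ± 0.22, and was detected on 9 of 9 control arrays but on 3 of 9 EG in vitro arrays and 1 of 9 EG in vivo arrays. The sizes depend on the background for all 3: without its correction the differences were -3.22 and -2.93 for Dpep1, -1.12 and -0.98 for Oplah, and -0.63 and -0.68 for Anpep, all still called.

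Genes listed for the supply of NADPH were mostly not called: of 6 measured, 1 rose and 1 fell in each comparison. G6pdx had no named probe and Pgd did not pass the filter, so neither was measured. Tkt, a transketolase of the pentose phosphate pathway, rose by 0.80 ± 0.15 in each. Idh1, the cytosolic isocitrate dehydrogenase, fell by 0.60 ± 0.17 in EG in vitro (limma adjusted p = 0.0220) and it fell by 0.77 ± 0.17 in EG in vivo (limma adjusted p = 0.00705). In EG in vitro the Idh1 call was lost without control replicate 1 (limma adjusted p = 0.0580), without EG in vitro replicate 1 (0.0605) or 2 (0.0736), and under median scaling (0.0901). Among 8 glutaredoxins and other enzymes that use glutathione, Glrx, cytosolic glutaredoxin, was the 1 gene called in each comparison, lower with differences of -0.98 ± 0.10 and -0.87 ± 0.10. With the replicate number as a block the NADPH list had 2 higher and 2 lower genes in each comparison, adding Nnt, a mitochondrial transhydrogenase, as higher and Me1, malic enzyme, as lower. In that fit the glutaredoxin list had 1 higher, Glrx3, and 2 lower, Glrx and Hagh, a glyoxalase.

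NRF2, encoded by Nfe2l2, is the transcription factor that induces Gclc, Gclm and many transferases under oxidative or electrophilic stress, and BACH1 competes with it for the same DNA element. Of 13 measured genes of NRF2, its partners and classical targets, 4 fell and 0 rose in each comparison. Nfe2l2 stood at 9.98, 9.60 and 10.09 in controls, 9.15, 9.19 and 9.17 for EG in vitro, and 9.27, 9.19 and 8.79 for EG in vivo. It fell by 0.72 ± 0.17 in EG in vitro (limma adjusted p = 0.0103, or 0.0520 under median scaling) and it fell by 0.81 ± 0.17 in EG in vivo (limma adjusted p = 0.00622). Bach1 fell with differences of -1.49 ± 0.31 and -1.67 ± 0.31, and Maff, a small MAF partner, with -1.17 ± 0.23 and -1.07 ± 0.23. Osgin1, an NRF2 target, fell with differences of -1.82 ± 0.18 and -1.63 ± 0.18. It was detected on 9 of 9 control arrays, 1 of 9 EG in vitro arrays and 3 of 9 EG in vivo arrays, and without background correction its differences were -0.68 and -0.62, still called. The classical targets Nqo1, Hmox1, Txnrd1 and Srxn1 were not called in either comparison, with differences of 0.28 to 1.45 in EG in vitro.

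The count changed with the replicate number as a block: of the 13 genes 5 fell and 5 rose in EG in vitro, and 5 fell and 2 rose in EG in vivo. Txnrd1, the cytosolic thioredoxin reductase, read 8.94, 9.76 and 6.63 in controls, 10.85, 10.44 and 8.39 in EG in vitro pools, and 10.20, 10.60 and 8.26 in EG in vivo pools. Each transfer pool lay above the control pool of its number, and replicate 3 was the lowest of every group. In the blocked fit Txnrd1 rose by 1.45 ± 0.23 in EG in vitro (limma adjusted p = 0.00129) and by 1.24 ± 0.23 in EG in vivo (limma adjusted p = 0.00294). Hmox1, heme oxygenase, and Nqo1, a quinone reductase, rose by 0.58 ± 0.18 and by 0.47 ± 0.14 in EG in vitro (limma adjusted p = 0.0283 and 0.0256) and did not pass in EG in vivo (0.176 and 0.0723). Nqo1 was dim, with means of 5.59 in controls and 6.05 in EG in vitro. The blocked fit was not run without background correction. Txn1, thioredoxin, was also called higher in EG in vitro alone, without a test of that difference between groups. Keap1, which holds NRF2 back, was called higher in both, by 0.33 and 0.35. Srxn1, sulfiredoxin, did not pass (limma adjusted p = 0.161 and 0.156). Mafk, another small MAF partner, was the additional gene called lower, with differences of -1.08 ± 0.15 and -1.26 ± 0.15.

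NRF2 and its partners bind the antioxidant response element, whose core was searched as TGACNNNGC on both strands of the promoters, from 250 bases before to 50 after each start (RefSeq, GRCm38.p6). The promoter table held 11 starts for 7 of the 10 genes. The letters were found in 2 of the 11, those of Gsta3 and Gclm, beside 12.4% of all 32851 promoters. The stretches of 30 bases around them are shown because one gene fell and the other did not pass the test, with the match in capitals. The Gsta3 stretch lies at chr1:21240454-21240483 on the plus strand, and its match begins 121 bases before the start of transcription. The Gclm stretch lies at chr3:122245413-122245442 on the plus strand, its match begins 134 bases before the start, and the element reads on the opposite strand.
Gsta3: aactcaggcaTGACATTGCatttttcttct
Gclm: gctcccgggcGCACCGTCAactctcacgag
Gsta3 differed from control by -2.45 and -2.46, and Gclm by -0.07 and 0.06, so a called and an uncalled gene both held the letters. The related letters TGANTCA, the AP-1 element, were found in 0 of the 11 promoters and in 7.81% of all.

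Peroxidases Gpx1 to Gpx4 carry selenocysteine, which needs its own supply and insertion machinery. Of 11 measured genes of that machinery, 2 rose and 1 fell in EG in vitro, and 1 rose and 1 fell in EG in vivo. Lrp2, the megalin receptor that takes up selenoprotein P in kidney, fell by 1.47 ± 0.10 in EG in vitro (limma adjusted p = 1.63e-05) and it fell by 1.54 ± 0.10 in EG in vivo (limma adjusted p = 1.70e-05). Eefsec, the elongation factor that brings selenocysteine to the ribosome, rose by 0.65 ± 0.15 and 0.55 ± 0.15. The Eefsec call in EG in vivo was lost without control replicate 2 (limma adjusted p = 0.0538) and with the authors' processed values (0.19, limma adjusted p = 0.0539). Without background correction it was lost too (0.20, limma adjusted p = 0.0513). Secisbp2, which binds the selenocysteine insertion element, rose by 0.36 ± 0.13 in EG in vitro (limma adjusted p = 0.0493), a call lost on leaving out any pool but EG in vitro replicate 2 or EG in vivo replicate 3. With the replicate number as a block, 4 rose and 2 fell in EG in vitro, and 3 rose and 2 fell in EG in vivo. The added lower gene was Selenop, the plasma selenoprotein that carries selenium between organs. It read 13.05, 13.39 and 11.37 in controls, 11.86, 11.69 and 9.96 in EG in vitro pools, and 11.44, 11.73 and 10.09 in EG in vivo pools, so each transfer pool lay below the control pool of its number. The differences of -1.44 and -1.52 did not pass without the block (limma adjusted p = 0.139 and 0.122) and passed with it (0.000107 and 9.28e-05).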

How the data were processed

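The probe intensity values were deposited without normalization or background subtraction (lowest signal 84.0), each with a detection p-value, per the file headers. The authors' processed matrix, used as an alternative, is deposited as linear intensity. Its column medians lie between 138.4 and 138.6, so arrays were brought to 1 level with no centring of genes, and it ranks probes as the non-normalized signals do (Spearman correlation 1). For software and genome build, the sources used here give nothing.

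The neqc function of limma 3.58.1 (R 4.3.3, offset 16) corrected the background, normalized arrays by quantiles and took log2 values. Probes were filtered on detection, the 3 technical arrays of a pool averaged, and 3 contrasts tested in 1 limma fit over 9 pools (6 residual and 2.41 prior degrees of freedom, two-sided, Benjamini-Hochberg over all kept probes). The fit was tested on simulated data. Errors in the text are SE. The number of pools, 3 per group, limits precision.

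Of the probes, 34885 had 1 gene symbol, 18 several and 10378 none, and 34807 were matched to RefSeq by gene identifier.

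Deviations of same-numbered pools from their group means correlated at 0.50 to 0.83 across groups, and those of different-numbered pools at -0.81 to 0.77. Replicate 3 stood apart, while replicates 1 and 2 were not clearly told apart: control replicate 2 correlated at 0.77 with EG in vitro replicate 1 and at 0.54 with EG in vitro replicate 2. Every same-numbered pair was positive, so the numbers were used as a block in an alternative fit, whose values are given where they change a call. The block was chosen from these same expression values, so the calls it adds depend on that choice. Sample titles give the numbers as biological replicates and name no batch.

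The genes, lists and tests were chosen with earlier results of these data known. All 9 measured genes are named. In each list up to 3 genes with the largest mean change among those called were named. The uncalled NRF2 targets, the named genes added by the block, Nfe2l2, Afp, Ttr, Apoa1, Serpina1a, Dcn, Gpx5, Gpx6, G6pdx and Pgd were named after their values were seen. So were Gstm2, Gstm4, Gstm5 and Gstp1.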

Additional observations from a re-analysis of the deposited data

How the results depend on the processing

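The counts of called genes among the 9 stayed between 6 and 7 in each comparison with control under all 18 alternatives, and at 0 between EG in vitro and EG in vivo. The share over all genes did not stay level. It was 44.8% and 43.4% in the main fit, and 60.0% and 58.4% with the replicate block. In EG in vitro, called probes ran from 7286 without EG in vitro replicate 2 to 17937 of 22958 with array weights. A steady count of the 9 genes is therefore not a result about these genes alone. Gpx1, Gpx3, Gpx4, Gstm1, Gsta3 and Gsto1 kept their direction and call in all 18 alternatives, with highest adjusted p-values between 0.000456 (Gstm1) and 0.0422 (Gpx1) in EG in vitro. Array weights, whose estimation did not converge, raised the called probes from 9292 to 17937 in EG in vitro, from 9011 to 15719 in EG in vivo, and gave 2 between the transfer groups, where all 27 arrays with the pool as a random block gave 1. Called pathway genes came to 63 and 58 with array weights and, in EG in vivo, to 50 with the replicate block, which changed no call of the 9 genes besides those of Gsta4 and Gclc. It gave 12799 and 12471 called probes. Signs changed only for differences that were not called. Between the transfer groups these were, for Gpx1, -0.029 under median scaling, -0.032 with replicates 1 and 2 only and -0.024 with array weights, and for Gsto1 -0.042 under median scaling. With replicates 1 and 2 only Gpx4 came to 0.025 and Gstm1 to 0.11, and with array weights Gpx4 came to 0.024, Gstm1 to 0.19, Gsta3 to -0.062 and Gsta4 to 0.061. Gclm in EG in vivo against control came to -0.037 with replicates 1 and 2 only. On leaving out 1 pool, differences between the transfer groups ran from -0.055 to 0.10 for Gpx1, -0.12 to 0.11 for Gpx4, -0.25 to 0.081 for Gstm1, -0.24 to 0.16 for Gsta3, -0.40 to 0.090 for Gsta4, -0.012 to 0.025 for Gsto1 and -0.22 to 0.67 for Gclc. Against control the Gclc difference ran from -0.68 to 0.21 in EG in vitro. In EG in vivo that of Gsta4 ran from -0.47 to 0.15 and that of Gclm from -0.059 to 0.13. The cause of these shifts was not tested. Folds of Gsta3, Gpx2, Dpep1, Oplah, Anpep and Osgin1, dim in at least 1 group, moved by over 1.5 times without background correction.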
